A study of Mus musculus with 18 samples.

Results

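Wild-type CD4 single-positive (CD4 SP) thymocytes were compared with wild-type CD8 single-positive (CD8 SP) thymocytes on Illumina mouse BeadChips. The arrays were taken by their labels, 3 of CD4 SP wt and 3 of CD8 SP wt, 6 of the 18 arrays in all. Cells came from thymi of C57Bl/6N mice aged 4 to 6 weeks, were separated by FACS, and gave total RNA that was amplified and labelled with biotin. Which gates defined CD8 SP cells, and whether immature CD8 SP cells were kept out, is not given by the labels. Of the other 12 arrays, 3 held wild-type CD4/CD8 double-positive (DP) thymocytes, the stage before mature SP cells of both lineages. Another 9 held the same 3 populations from mice in which FoxN1-Cre deleted Gpr177 (now Wls), called cKO. FoxN1 is a gene of thymic epithelium, the stroma that supports the sorted cells. The labels say neither how many mice gave one sample nor whether the 3 samples of a group came from separate mice, so the p-values measure the spread between these samples, which may be technical.

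DP thymocytes carry both coreceptors and are tested on self peptides. Cells selected on MHC class II keep CD4 and enter the helper lineage under the factors Gata3 and Zbtb7b (ThPOK), while cells selected on MHC class I keep CD8 and enter the cytotoxic lineage under Runx3. In both lineages selection ends recombination of the T cell receptor genes, and the cells then mature in the medulla and leave the thymus. In sorted bulk RNA, fewer cells that use a gene and less of its RNA per cell cannot be told apart.

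Values are log2 intensities after background correction and quantile normalization, and a difference is CD4 SP minus CD8 SP. Arrays of one of these wild-type SP groups correlated at 0.869 to 0.904, and arrays of different groups at 0.818 to 0.858. Before normalization the median intensity was 164.2, 168.4 and 185.6 on the CD4 SP arrays and 194.6, 246.2 and 222.5 on the CD8 SP arrays, so that the groups did not overlap. The number of probes detected was 20310, 20004 and 19701 on the CD4 SP arrays and 21026, 19537 and 19215 on the CD8 SP arrays. Each of the 3 BeadChips held all 6 groups of the series, and CD4 SP wt always took position B and CD8 SP wt position C, so position and lineage cannot be told apart.

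The coreceptor genes came first, as a check of the labels. The Cd4 probe ILMN_1249663 read 8.64, 8.40 and 8.31 in CD4 SP, against 4.47, 4.36 and 4.48 in CD8 SP, where no array detected it. The groups lay far apart, and Cd4 was at least 11.7-fold higher in CD4 SP (log2 difference 4.02 ± 0.23 SE, limma adjusted p = 3.39e-08). In DP thymocytes the same probe averaged 8.76 ± 0.27 (SD, n = 3). A second Cd4 probe, ILMN_1217214, had the higher mean over all arrays but a smaller difference, with 7.27, 7.78 and 8.02 in CD4 SP against 6.82, 6.25 and 7.06 in CD8 SP (0.98 ± 0.26, limma adjusted p = 0.0429). Its call ended without CD4 SP array 2 (0.130) or 3 (0.155), without CD8 SP array 1 (0.0885) or 2 (0.188), and with the chip as a block (0.0580).

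Cd8b1 encodes the beta chain of the CD8 coreceptor. Its brightest probe, ILMN_2741169, read 7.86, 8.69 and 7.05 in CD4 SP, against 10.78, 11.11 and 10.85 in CD8 SP (-3.05 ± 0.30, limma adjusted p = 1.93e-05). The signal was thus clearly detected on all 3 CD4 SP arrays, though below every CD8 SP array. The Cd8b1 probe ILMN_2664929 gave 4.86 ± 0.22 in CD4 SP and 8.87 ± 0.24 in CD8 SP (SD, n = 3 each), a difference of -4.01 ± 0.29 (limma adjusted p = 4.74e-07). Another, ILMN_1257694, pointed the other way with 8.04 ± 0.29 in CD4 SP and 7.31 ± 0.43 in CD8 SP and was not called (0.74 ± 0.41, limma adjusted p = 0.423). Cd8a, the alpha chain, was above detection only on CD4 SP array 2 (5.86) among these 6 arrays, so its tested probe could not report on the label. Gata3 and Runx3 were not analysed here.

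A probe was tested if its detection p was under 0.05 on at least 3 of the 18 arrays, and called if its limma adjusted p was under 0.05. Of 26676 tested probes 912 were called (3.42%), 473 higher and 439 lower in CD4 SP. With 1 probe per gene, 467 of 12975 genes were called (3.60%), with 193 higher in CD4 SP (1.49%) and 274 lower (2.11%). In 465 of the 467 the 3 CD4 SP values lay wholly to one side of the 3 CD8 SP values, which held for 23.1% of all measured genes. The genes were called on these same values, so their separation is no separate test. All 467 had the same sign on each of the 3 chips, which values without overlap fix in advance, so this is no separate test either. A gene was counted by its brightest tested probe, that of highest mean over the 18 arrays. Of 276 uncalled members of the gene lists below, 22 had another probe that was called, 17 of them higher and 5 lower in CD4 SP. The median absolute difference of the called genes was 1.49. For 40 of the higher genes no CD8 SP array detected the probe, and for 34 of the lower genes no CD4 SP array did. Without CD4 SP array 1 the called probes numbered 494, without CD4 SP array 2 573, without CD8 SP array 1 493, and without CD8 SP array 3 521. The share of called probes that were higher in CD4 SP was 51.9%, against 39.2% with median scaling and 38.2% with the array median as a covariate. The median difference of all genes was -0.06, and -0.17 with median scaling.

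**Figure D1:**
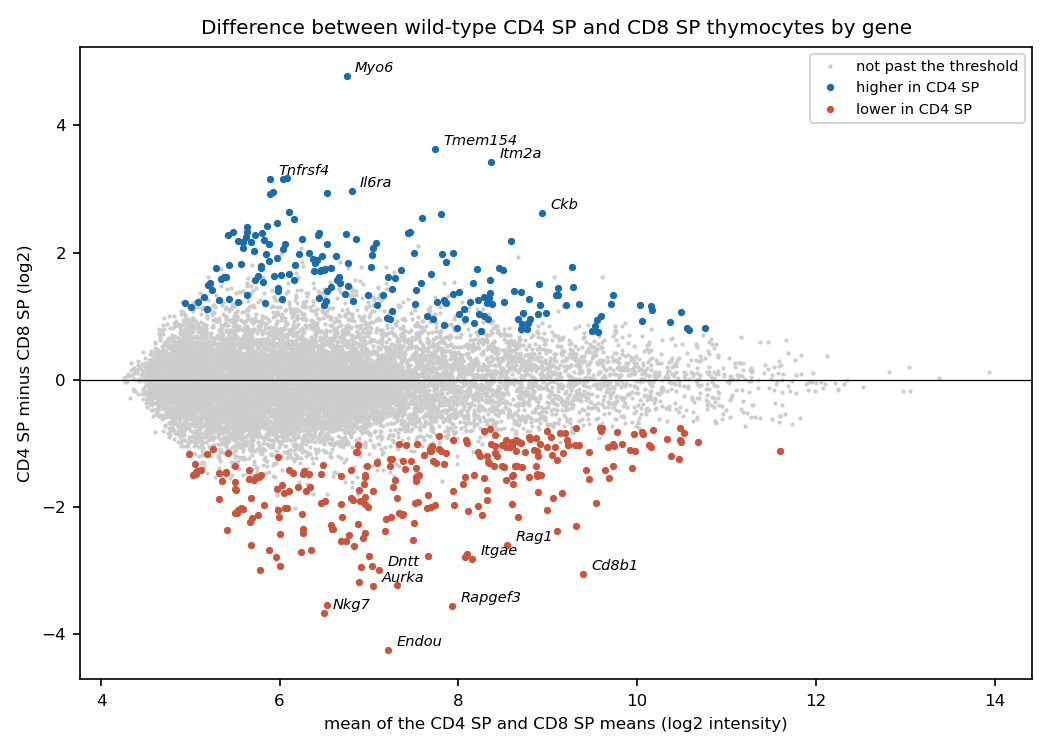
Difference between wild-type CD4 SP and CD8 SP thymocytes (log2, CD4 SP minus CD8 SP) against the mean of the 2 group means (log2 intensity), with 1 point per measured gene; blue points are called higher in CD4 SP, red points lower, grey points not called. The called genes spread from -4.25 (Endou) to 4.78 (Myo6), while the median of all genes lay at -0.06.

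The gene with the largest difference in favour of CD4 SP was Myo6, an unconventional myosin that walks toward the minus end of actin filaments. Myo6 read 8.78, 9.93 and 8.72 in CD4 SP, against 4.45, 4.26 and 4.37 in CD8 SP. No CD8 SP array and 1 of 3 DP arrays detected it, so Myo6 was at least 18.8-fold higher in CD4 SP than in CD8 SP (4.78 ± 0.31, limma adjusted p = 1.73e-07). Itm2a, a membrane protein gene switched on during positive selection, had 10.01, 10.17 and 10.08 in CD4 SP, against 7.50, 7.04 and 5.46 in CD8 SP (3.42 ± 0.42, limma adjusted p = 0.000169). The CD8 SP arrays were spread widely but stayed below every CD4 SP array. DP thymocytes, at 6.94 ± 0.32, were near the CD8 SP mean of 6.66. Tmem154, a membrane protein gene, showed a similar picture, with 9.79, 9.64 and 9.21 in CD4 SP and 7.26, 4.72 and 5.77 in CD8 SP (3.63 ± 0.58, limma adjusted p = 0.00142).

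Receptors and secreted factors of helper T cells were among the genes higher in CD4 SP. Tnfrsf4, which encodes the costimulatory receptor OX40, read 7.33, 7.62 and 7.44 in CD4 SP, against 4.37, 4.31 and 4.27 in CD8 SP, where it was not detected (at least 5.87-fold, limma adjusted p = 2.91e-06). Il21, a cytokine made by helper T cells that acts on B cells, read 8.42, 7.53 and 6.89 in CD4 SP, against 4.65, 4.47 and 4.27 in CD8 SP (at least 6.52-fold, limma adjusted p = 1.19e-05). Cd40lg, the ligand through which helper T cells activate B cells, had 6.79, 6.95 and 6.14 in CD4 SP, against 4.35, 4.56 and 4.41 in CD8 SP (at least 3.29-fold, limma adjusted p = 9.75e-05). All 3 genes were below detection on the CD8 SP and DP arrays. Ptgir, the prostacyclin receptor, averaged 7.67 ± 0.13 in CD4 SP and 4.50 ± 0.25 in CD8 SP, at least 6.76-fold (limma adjusted p = 0.000104).

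**Figure D2:**
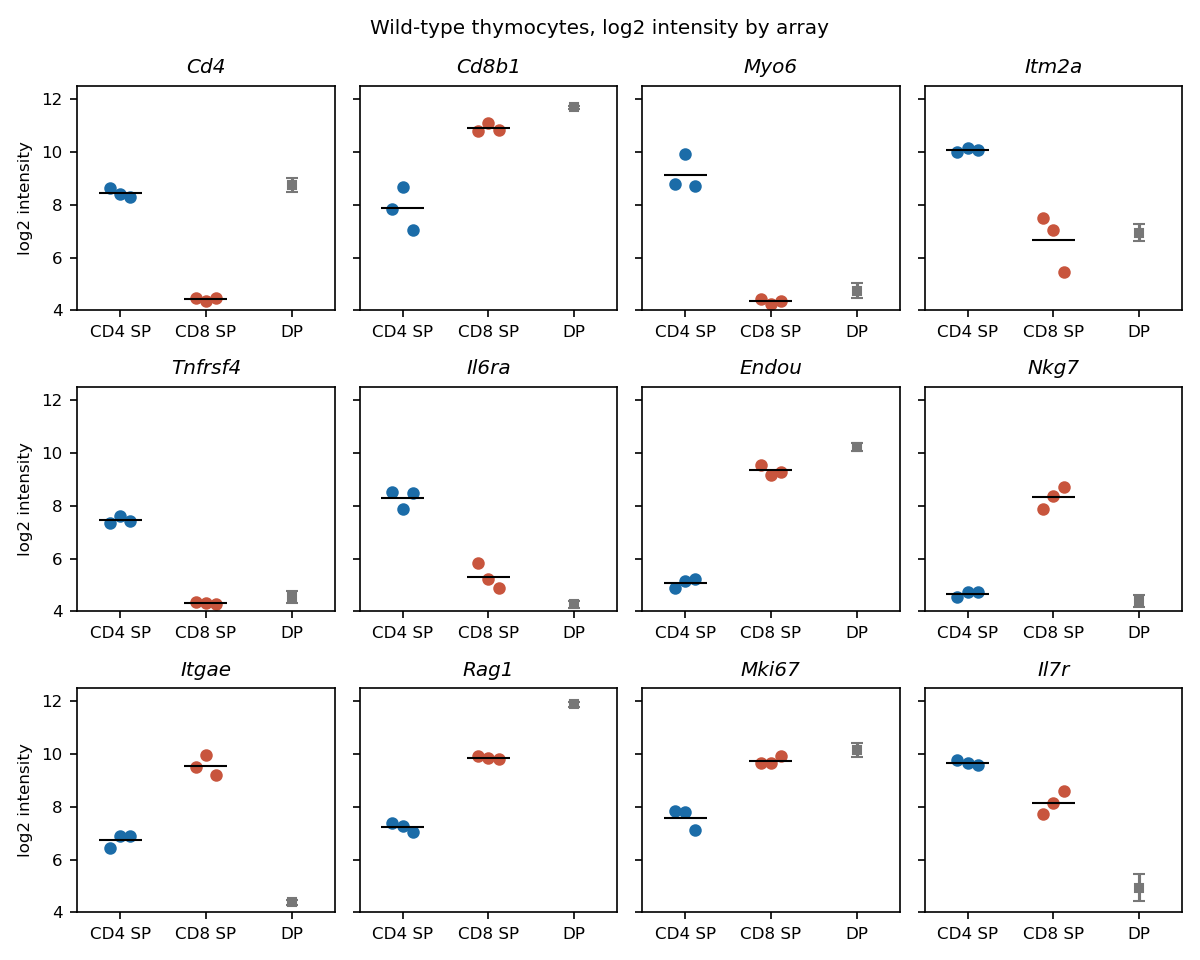
Log2 intensity of 12 genes on each wild-type array, with a point per CD4 SP array (blue, left) and CD8 SP array (red, middle), a line at the group mean, and the DP mean with its SD (grey, right, n = 3); Cd4 is shown by probe ILMN_1249663. CD4 SP and CD8 SP points do not overlap in any panel, and Rag1, Mki67 and Cd8b1 had DP means of 11.88, 10.16 and 11.69, above both SP groups.

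Among 19 measured of 23 CD4 lineage and helper genes, 7 were higher and 2 lower in CD4 SP. For this and every list below, the shares over all measured genes were 1.49% higher and 2.11% lower. The median difference of the list was 0.69, against -0.06 for all genes. The higher members with the smallest p were Cd40lg, Itm2a and Cd28, and the lower ones were Myb and Nrp1. Cd28, the main costimulatory receptor, averaged 10.01 ± 0.03 in CD4 SP and 8.55 ± 0.17 in CD8 SP (1.46 ± 0.25, limma adjusted p = 0.00236). Myb, a transcription factor of dividing and immature thymocytes, was lower in CD4 SP, with 6.59 ± 0.26 against 8.50 ± 0.06 in CD8 SP and 10.11 ± 0.19 in DP (-1.92 ± 0.32, limma adjusted p = 0.00236). Icos, a costimulatory receptor, was higher by 1.30 ± 0.26 (limma adjusted p = 0.00899, 0.0515 without CD8 SP array 3). Zbtb7b, the factor that commits cells to the CD4 lineage, had 6.97, 6.29 and 6.90 in CD4 SP and 6.79, 7.23 and 4.80 in CD8 SP (0.45 ± 0.53, limma adjusted p = 0.765). The 2 groups overlapped for Zbtb7b, and no difference was detectable on these arrays. The list had 4 higher members in place of 7 without CD4 SP array 2, without CD8 SP array 3, with median scaling, or in a fit of the wild-type arrays alone.

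Some genes switched on by T cell receptor signals were higher in CD4 SP. The median difference of 20 measured positive selection and receptor-induced genes out of 25 was 0.96. Of them 5 were higher in CD4 SP and 0 lower, against 1.49% and 2.11% of all measured genes. Besides Itm2a these were Irf4, Egr2, Egr1 and Dusp6. Irf4, a transcription factor that scales with receptor signal strength, read 7.20, 7.29 and 7.09 in CD4 SP, against 4.75, 4.59 and 4.87 in CD8 SP, where it was not detected (at least 4.88-fold, limma adjusted p = 0.00023). Egr2, an early growth response factor, averaged 9.84 ± 0.16 in CD4 SP and 8.40 ± 0.23 in CD8 SP (1.44 ± 0.28, limma adjusted p = 0.00685). Dusp6, a phosphatase that acts on ERK, averaged 11.02 ± 0.03 in CD4 SP and 9.96 ± 0.12 in CD8 SP (1.06 ± 0.22, limma adjusted p = 0.0117). For Egr1 the difference of 1.10 ± 0.23 (limma adjusted p = 0.0112) was not called without CD4 SP array 1 (0.0637) or CD8 SP array 3 (0.0661). Cd69, which marks cells just after selection, had 8.25 ± 0.23 in CD4 SP and 7.22 ± 0.19 in CD8 SP by its brighter probe, which just missed the threshold (limma adjusted p = 0.05 after rounding). Its other probe, ILMN_1218240, was called higher, with 8.35 ± 0.56 in CD4 SP and 6.95 ± 0.60 in CD8 SP (1.40 ± 0.33, limma adjusted p = 0.0250). The list had 3 higher members with median scaling and in a fit of the 6 arrays alone.

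Within the T cell receptor complex and its proximal signalling, 2 of 20 measured genes out of 22 were higher in CD4 SP and 0 lower. Over all measured genes 1.49% were higher and 2.11% lower. The median difference of the list was 0.37. Cd247, the zeta chain of the receptor complex, read 9.56, 9.57 and 9.37 in CD4 SP, against 8.30, 8.33 and 8.37 in CD8 SP (1.17 ± 0.20, limma adjusted p = 0.00294, 0.0629 with median scaling). The other call was Cd2, an adhesion molecule, at 1.01 ± 0.27 (limma adjusted p = 0.0491), which ended when any of the 6 arrays was left out (0.0679 to 0.169). The invariant chains Cd3e, Cd3g and Cd3d were bright in both lineages and not called, with differences of 0.28, 0.33 and 0.41. Lat, the adaptor that links the receptor to downstream signals, was not called by its brighter probe (0.37 ± 0.19, limma adjusted p = 0.380) but was called higher by ILMN_1242795 (2.26 ± 0.36, limma adjusted p = 0.00155).

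Receptors for cytokines and chemokines differed one by one. Il6ra, which binds interleukin-6, read 8.52, 7.87 and 8.48 in CD4 SP, against 5.84, 5.21 and 4.90 in CD8 SP (2.97 ± 0.30, limma adjusted p = 1.94e-05). All 3 DP arrays were below detection for Il6ra. Il18r1, the receptor chain for interleukin-18, read 8.45, 6.82 and 6.94 in CD4 SP, against 4.31, 4.72 and 4.31 in CD8 SP, where it was not detected (at least 5.64-fold, limma adjusted p = 0.00179). Il7r, the receptor for the survival cytokine interleukin-7, was detected by its brightest probe on all arrays of both SP groups but on only 1 DP array. This probe read 9.76, 9.65 and 9.58 in CD4 SP, against 7.72, 8.13 and 8.60 in CD8 SP (1.51 ± 0.27, limma adjusted p = 0.00395). The other tested Il7r probes were all called higher as well, by 2.30 to 2.92. Of these, ILMN_1255750 and ILMN_2975500 were detected on no CD8 SP array (at least 5.63-fold and 4.51-fold). Of 22 measured cytokine receptor and JAK-STAT genes out of 27, Il6ra, Il18r1 and Il7r were higher in CD4 SP by their brightest probes. Ifngr1, the ligand-binding chain for interferon-gamma, was lower by a call that ended without any single one of the 6 arrays and with the chip as a block (-0.95 ± 0.25, limma adjusted p = 0.0453, 0.0602 to 0.187 without 1 array, 0.0574 with the block). Ifngr2 and Jak3 were called higher in CD4 SP by another probe only (ILMN_1258300, 1.95 ± 0.44, limma adjusted p = 0.0203, and ILMN_1219155, 1.47 ± 0.31, limma adjusted p = 0.0131). The median difference of these 22 genes was 0.50, and of all measured genes 1.49% were called higher and 2.11% lower.

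Of 10 measured chemokine and egress receptors out of 15, 3 were higher in CD4 SP and 1 lower, against 1.49% and 2.11% of all measured genes. Their median difference was 0.51. Ccr8 read 6.50, 6.81 and 6.62 in CD4 SP, against 4.26, 4.45 and 4.22 in CD8 SP (at least 3.32-fold, limma adjusted p = 2.09e-05). Gpr183, a receptor for oxysterols that guides lymphocytes, read 6.60, 7.59 and 6.33 in CD4 SP, against 4.32, 4.42 and 4.58 in CD8 SP (at least 3.81-fold, limma adjusted p = 0.000862). Neither gene was detected on a CD8 SP or DP array. Ccr4, which brings thymocytes to the medulla, was at least 3.55-fold higher in CD4 SP (limma adjusted p = 0.0183), a call that ended without CD4 SP array 1 (0.0842) or 2 (0.0811) or CD8 SP array 1 (0.0715) or 2 (0.0559). Cxcr4, which keeps immature thymocytes in the cortex, ran the other way, with 7.83 ± 0.17 in CD4 SP, 9.20 ± 0.16 in CD8 SP and 10.04 ± 0.03 in DP (-1.37 ± 0.26, limma adjusted p = 0.00661). Ccr7, the receptor for entry to the medulla, was bright in both SP groups and not called (9.66 ± 0.03 in CD4 SP, 8.58 ± 0.57 in CD8 SP, limma adjusted p = 0.0914).

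Among 19 measured genes of SP maturation and egress out of 24, 4 were higher and 1 lower in CD4 SP, with a median difference of 0.59. Besides Il6ra and Il7r, Samhd1, which breaks down deoxynucleotides, had 9.33 ± 0.26 in CD4 SP and 7.57 ± 0.39 in CD8 SP (1.76 ± 0.30, limma adjusted p = 0.0024). Slfn1, a schlafen gene of quiescent T cells, had 9.43 ± 0.10 in CD4 SP and 8.16 ± 0.38 in CD8 SP (1.27 ± 0.27, limma adjusted p = 0.0134). No DP array detected Samhd1, and 1 of 3 detected Slfn1. The lower member was Plac8, with 5.69 ± 0.59 in CD4 SP and 8.17 ± 0.32 in CD8 SP (-2.48 ± 0.45, limma adjusted p = 0.00359). Klf2, the factor that drives exit from the thymus, had 6.04 ± 0.42 in CD4 SP and 5.13 ± 0.36 in CD8 SP and was not called (limma adjusted p = 0.101).

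The GIMAP genes, a cluster of small GTPases of lymphocyte survival, had a median difference of 1.35 over 7 measured of 8 members, of which 4 were called higher. Gimap4 read 7.14, 6.82 and 6.80 in CD4 SP, against 5.16, 4.41 and 4.60 in CD8 SP (2.20 ± 0.38, limma adjusted p = 0.00294). Gimap9 read 7.48, 7.26 and 7.32 in CD4 SP, against 5.68, 4.99 and 4.74 in CD8 SP (2.21 ± 0.39, limma adjusted p = 0.00301). The calls of Gimap6 (1.37 ± 0.31, limma adjusted p = 0.0197) and Gimap8 (1.35 ± 0.31, limma adjusted p = 0.0198) ended when any array but CD8 SP array 2 was left out, at 0.0506 to 0.0942 and 0.0524 to 0.0885. Sequence shared among GIMAP genes may let a probe report on more than one of them. Survival and death genes (17 measured of 22) had a median difference of 0.68. Of them 2 were higher in CD4 SP, against 1.49% of all measured genes. They were Cflar, an inhibitor of death receptor signalling (8.51 ± 0.40 in CD4 SP, 6.50 ± 0.92 in CD8 SP, limma adjusted p = 0.0044), and Bcl2a1d (1.38 ± 0.28, limma adjusted p = 0.01, 0.0630 without CD8 SP array 1). Bcl2 itself was not called (0.84 ± 0.26, limma adjusted p = 0.0982).

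**Figure D3:**
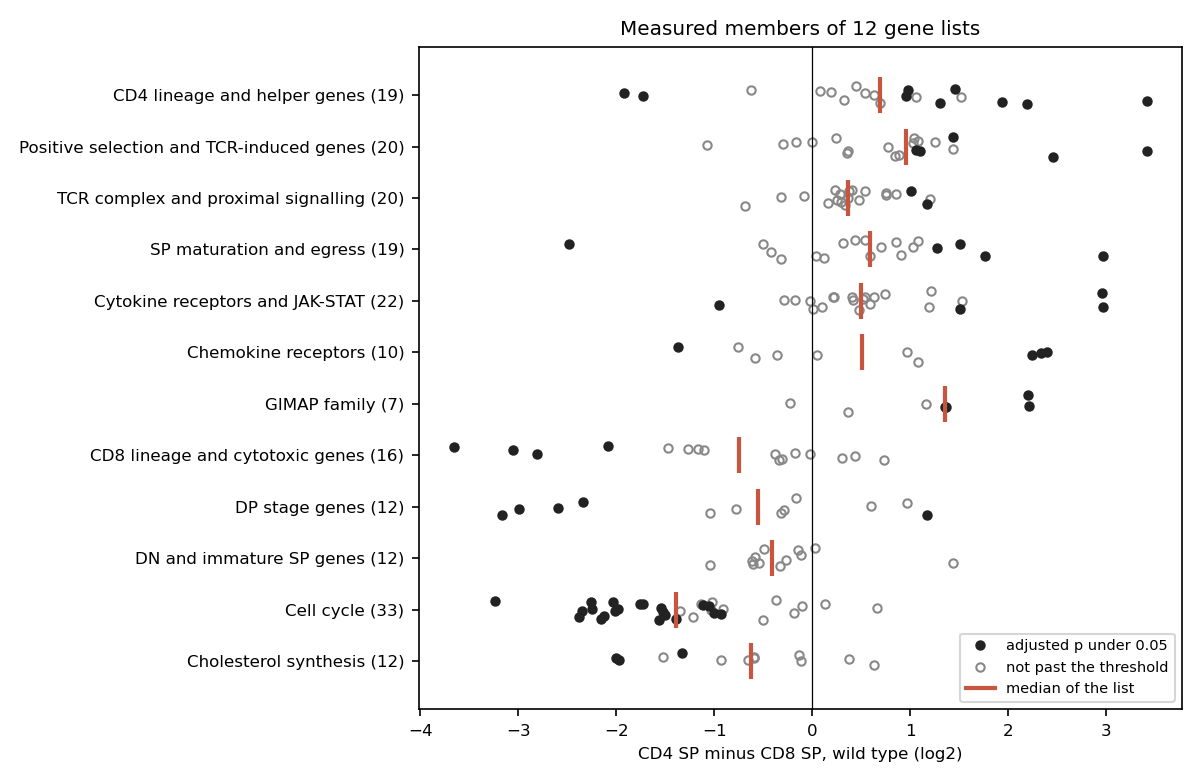
Difference between wild-type CD4 SP and CD8 SP (log2) for each measured member of 12 gene lists, with filled points for called genes, open points for the others and a red bar at the list's median; numbers in brackets are measured members. Medians ran from 1.35 for the GIMAP family to -1.39 for the cell cycle, with 31 of 33 cell cycle members below 0.

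On the CD8 side, the gene with the largest difference was Endou, an endoribonuclease that cuts at uridines. Endou read 4.87, 5.16 and 5.24 in CD4 SP, against 9.55, 9.18 and 9.29 in CD8 SP (-4.25 ± 0.21, limma adjusted p = 9.12e-09). It was brighter still in DP thymocytes, at 10.23 ± 0.14. Nkg7, a protein of cytotoxic granules, read 4.56, 4.72 and 4.72 in CD4 SP, where no array detected it, against 7.89, 8.37 and 8.71 in CD8 SP. Nkg7 was therefore at least 10.8-fold lower in CD4 SP (limma adjusted p = 3.82e-07), and no DP array detected it. Itgae, the integrin chain CD103 that holds CD8 T cells to epithelium, read 6.43, 6.91 and 6.91 in CD4 SP, against 9.50, 9.95 and 9.22 in CD8 SP (-2.81 ± 0.25, limma adjusted p = 6.46e-06). No DP array detected Itgae with this probe. Of its 5 other tested probes, 1 pointed the other way without a call (0.16 ± 0.55).

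Of 16 measured CD8 lineage and cytotoxic genes out of 27, 0 were higher in CD4 SP and 4 were lower (Nkg7, Itgae, Cd8b1 and Xcl1), with a median difference of -0.74. Xcl1, a chemokine for cross-presenting dendritic cells, read 7.25, 6.26 and 5.35 in CD4 SP, against 8.20, 8.14 and 8.80 in CD8 SP (-2.09 ± 0.36, limma adjusted p = 0.00256, 0.0775 in a fit of the 6 arrays alone). The values did not overlap, although the CD4 SP arrays were far apart. Eomes, a transcription factor of cytotoxic cells, was below detection on the CD4 SP arrays (4.53, 4.54 and 4.28), detected on all 3 CD8 SP arrays (4.99, 5.56 and 7.21), and missed the threshold (limma adjusted p = 0.0700). Prf1, the pore-forming protein, was bright in all 3 wild-type populations and not called (8.22 ± 0.09 in CD4 SP, 7.78 ± 0.48 in CD8 SP, 8.53 ± 0.10 in DP, limma adjusted p = 0.598). Klrk1 and Ccl5, genes of cytotoxic effector cells, were not called either (limma adjusted p = 0.848 and 0.827). Of 6 measured NK cell markers, which share such genes, 0 were called by their brightest probe. Another probe of Klra3, a receptor of the Ly49 family, was called higher, with 6.79 ± 0.48 in CD4 SP and no detection in CD8 SP (ILMN_1237580, at least 3.67-fold, limma adjusted p = 0.00192). The summed linear level of the 6 was 320 to 586 on CD4 SP arrays and 454 to 649 on CD8 SP arrays, with Fcgr3 detected on no array of either group. Their part in these results was not tested.

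Several genes of the DP stage were lower in CD4 SP. Rag1, one of the recombinase genes, read 7.39, 7.29 and 7.05 in CD4 SP, against 9.91, 9.84 and 9.80 in CD8 SP and a DP mean of 11.88 ± 0.10 (-2.60 ± 0.26, limma adjusted p = 2.00e-05). Dntt, the polymerase that adds bases at receptor junctions, read 5.72, 6.63 and 4.50 in CD4 SP, against 8.86, 8.32 and 8.63 in CD8 SP and 9.73 ± 0.05 in DP (-2.99 ± 0.38, limma adjusted p = 0.000226). Aqp11, a water channel gene bright in DP thymocytes, read 4.75, 5.71 and 5.42 in CD4 SP, against 8.69, 8.01 and 8.71 in CD8 SP and 10.15 ± 0.20 in DP (-3.17 ± 0.30, limma adjusted p = 1.05e-05). For all 3 genes the CD8 SP arrays stood between the other populations, without overlap with CD4 SP. Mns1 followed the same order, with 5.43 ± 0.60 in CD4 SP, 7.77 ± 0.30 in CD8 SP and 8.53 ± 0.23 in DP (limma adjusted p = 0.00035).

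Of 12 measured out of 17, 4 were lower and 1 was higher in CD4 SP, and the median difference was -0.55. The higher member was St6gal1, a sialyltransferase, with 10.62 ± 0.07 in CD4 SP and 9.45 ± 0.16 in CD8 SP (1.17 ± 0.22, limma adjusted p = 0.00561). Satb1, a chromatin organiser, was not called by its brightest probe (0.60 ± 0.20, limma adjusted p = 0.122), but both others were higher in CD4 SP (2.44 ± 0.30 and 1.48 ± 0.24, limma adjusted p = 1.86e-04 and 0.00146). Rag2 was detected on all 3 DP arrays but on no array of either SP group (4.29 ± 0.08 in CD4 SP, 4.46 ± 0.12 in CD8 SP, 6.87 ± 0.69 in DP). Themis, needed for positive selection, had 6.31 ± 1.33 in CD4 SP, 6.63 ± 0.53 in CD8 SP and 8.69 ± 0.20 in DP, without a call between the SP groups (limma adjusted p = 0.831). The mean log2 level of the 12 genes was 6.58 to 7.10 on CD4 SP arrays, 7.64 to 8.01 on CD8 SP arrays and 9.17 to 9.44 on DP arrays. Their summed linear level, which follows the brightest members, overlapped between the SP groups, at 5550 to 6348 on CD4 SP arrays and 5533 to 6477 on CD8 SP arrays, against 13021 to 14658 on DP arrays. Genes of double-negative and immature SP cells gave 0 calls among 12 measured out of 17 (median -0.41), among them Ptcra, the chain of the pre-T cell receptor (6.71 ± 0.27 in CD4 SP, 7.29 ± 0.60 in CD8 SP, limma adjusted p = 0.498). Cd24a, a marker of immature thymocytes, was detected on no CD4 SP array, 1 CD8 SP array and 3 DP arrays.

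Over all calls, the DP mean lay nearer to the CD8 SP mean than to the CD4 SP mean for 190 of the 274 genes lower in CD4 SP (69.3%). The same held for 99 of the 193 genes higher in CD4 SP (51.3%) and for 43.9% of all measured genes. In 166 of the 274 lower genes (60.6%) the DP mean was between the SP means, against 92 of the 193 higher genes (47.7%) and 30.4% of all. It was above both in 81 of the lower genes (29.6%) and 47 of the higher genes (24.4%), near the 26.3% of all measured genes. Called genes were chosen for a wide gap between the SP means, and a wide gap holds the DP mean more often. No uncalled genes with gaps as wide were compared. Whether the called genes exceed the 30.4% of all genes for any other reason was therefore not tested.

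**Figure D4:**
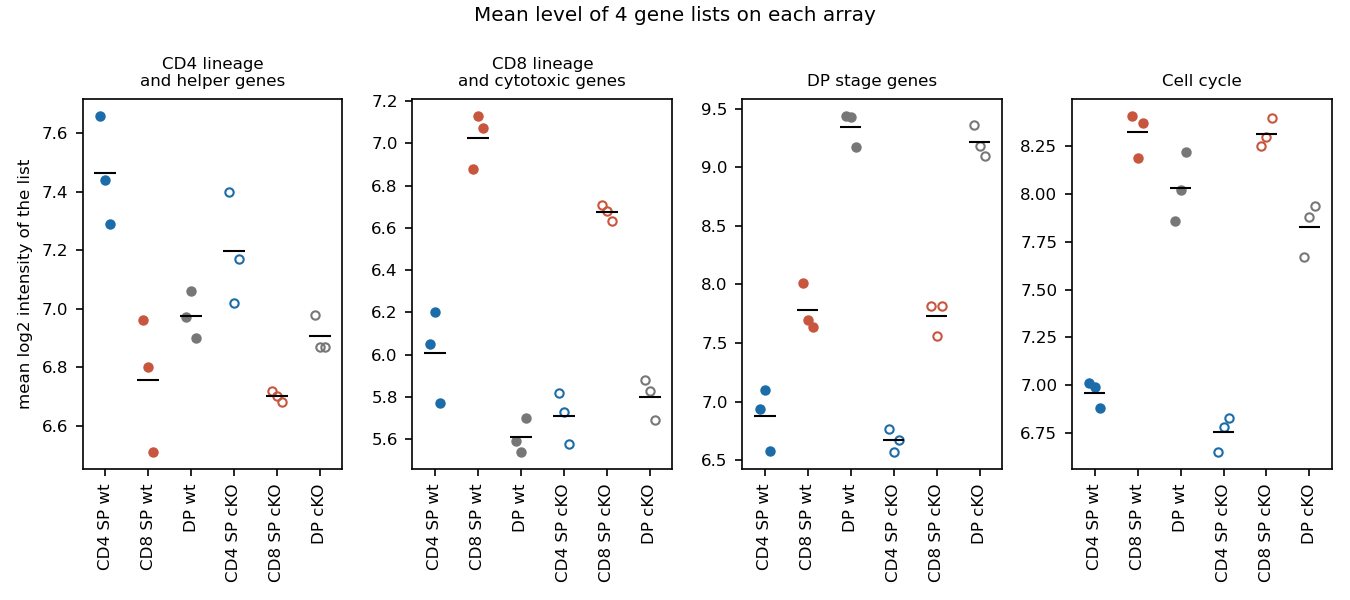
Mean log2 intensity of the measured members of 4 gene lists on each of the 18 arrays, with filled points for wild type, open points for cKO and a line at each group mean; the vertical scale differs between panels. On wild-type arrays the DP stage list ran from 6.58 to 7.10 in CD4 SP, 7.64 to 8.01 in CD8 SP and 9.17 to 9.44 in DP, and cell cycle genes from 6.88 to 7.01, 8.19 to 8.41 and 7.86 to 8.22.

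Cell cycle genes formed the list with the most calls. Of 33 measured out of 36, 21 were lower in CD4 SP and 0 were higher, where 2.11% of all measured genes were lower. Their median difference was -1.39. The count was between 16 and 19 with any 1 of the 6 arrays left out. Uhrf1, which carries DNA methylation through replication, read 7.54, 8.07 and 8.10 in CD4 SP, against 10.42, 10.07 and 10.38 in CD8 SP (-2.38 ± 0.27, limma adjusted p = 6.34e-05). Mki67, the proliferation marker Ki-67, read 7.85, 7.82 and 7.11 in CD4 SP, against 9.67, 9.66 and 9.91 in CD8 SP (-2.16 ± 0.29, limma adjusted p = 0.000324). Top2a, the topoisomerase that untangles chromosomes, read 6.01, 5.81 and 5.43 in CD4 SP, against 8.01, 8.05 and 7.94 in CD8 SP (-2.26 ± 0.30, limma adjusted p = 0.000308). Each of these genes was detected on all arrays of both groups, and no CD4 SP value came near a CD8 SP value.

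The calls covered both DNA synthesis and mitosis. For DNA synthesis, Tyms, which makes thymidylate, differed by -2.25 ± 0.29 (limma adjusted p = 0.000257), and the 6 measured MCM helicase subunits Mcm2 to Mcm7 were all lower in CD4 SP, by -0.93 (Mcm4) to -2.01 (Mcm3). For mitosis, Aurka, a kinase of the spindle poles, read 5.86, 6.11 and 4.31 in CD4 SP, against 8.51, 8.53 and 8.96 in CD8 SP (-3.24 ± 0.46, limma adjusted p = 0.000528). Plk1, another mitotic kinase, averaged 8.01 ± 0.22 in CD4 SP and 9.77 ± 0.03 in CD8 SP (-1.76 ± 0.25, limma adjusted p = 0.00051). Pbk, Gtse1 and Cenpk, which serve mitosis and are outside the list, were among the 15 genes with the largest differences toward CD8 SP. Cenpk, a kinetochore protein, was undetected in CD4 SP and at least 5.39-fold lower there (limma adjusted p = 0.000305). Gtse1 was at least 5.19-fold lower by its brightest probe (limma adjusted p = 0.000668), but another of its 3 probes had the opposite sign, and the mean of the 3 was not called (0.0549). The cyclin genes measured did not pass, among them Ccnd2, at 9.72 in CD4 SP, 9.06 in CD8 SP and 5.45 in DP (0.66, limma adjusted p = 0.349).

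In linear units the cell cycle members summed to 7479 to 7902 on CD4 SP arrays, 17513 to 19109 on CD8 SP arrays and 14093 to 17653 on DP arrays. The groups CD4 SP and CD8 SP were thus more than 2-fold apart with no overlap. Rag1, Dntt, Aqp11 and Mns1 of the DP stage and the B cell gene Ighm were lower in CD4 SP on the same arrays. The part of DP, B or immature CD8 SP cells in the cell cycle result was not tested.

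Promoters of the cell cycle genes that were lower in CD4 SP were read for a motif that such genes are known to carry, the CCAAT box bound by NF-Y. Within the 250 bases before the transcription start, CCAAT or its reverse complement ATTGG stood in 15 of the 19 genes with a RefSeq promoter (78.9%). It stood in 123 of 221 genes lower in CD4 SP (55.7%), in 53 of 141 genes higher in CD4 SP (37.6%) and in 4017 of 10167 measured genes (39.5%). Aurka, Mki67, Top2a and Mcm3 are shown because they span kinase, marker, chromosome and replication genes of the list. The sequences are RefSeq's on GRCm38.p6, all on the minus strand and printed 5′ to 3′ toward the start, with each CCAAT or ATTGG in capitals. Their positions are chr2:172370571-172370820 for Aurka, chr7:135716380-135716629 for Mki67, chr11:99024190-99024439 for Top2a and chr1:20820313-20820562 for Mcm3.
Aurka: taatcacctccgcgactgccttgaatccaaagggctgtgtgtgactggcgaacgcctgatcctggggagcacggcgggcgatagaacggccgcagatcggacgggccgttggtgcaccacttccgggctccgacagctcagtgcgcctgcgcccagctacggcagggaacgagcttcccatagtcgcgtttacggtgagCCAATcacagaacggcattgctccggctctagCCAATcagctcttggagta
Mki67: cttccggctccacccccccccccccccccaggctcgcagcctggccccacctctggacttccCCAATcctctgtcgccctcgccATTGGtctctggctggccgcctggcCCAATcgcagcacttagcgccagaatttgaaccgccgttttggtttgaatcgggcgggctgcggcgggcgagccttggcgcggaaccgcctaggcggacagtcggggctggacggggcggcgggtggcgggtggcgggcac
Top2a: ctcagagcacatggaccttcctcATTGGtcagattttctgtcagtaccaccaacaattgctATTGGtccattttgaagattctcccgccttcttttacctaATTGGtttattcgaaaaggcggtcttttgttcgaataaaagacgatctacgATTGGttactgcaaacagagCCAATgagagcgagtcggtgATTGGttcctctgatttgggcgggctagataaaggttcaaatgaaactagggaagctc
Mcm3: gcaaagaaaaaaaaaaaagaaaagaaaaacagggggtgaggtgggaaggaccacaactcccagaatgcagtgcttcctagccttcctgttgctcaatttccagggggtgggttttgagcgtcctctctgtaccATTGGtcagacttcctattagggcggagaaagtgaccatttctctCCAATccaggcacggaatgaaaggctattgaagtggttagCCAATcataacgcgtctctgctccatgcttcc
Aurka held 2 such boxes, 51 and 19 bases before the start by their first base, Mki67 held 3, Top2a held 6 and Mcm3 held 3. TTCCCGC, a form of the E2F site, with its complement GCGGGAA stood in 4 of the 19 genes (21.1%) and in 7.3% of all measured genes. The CHR element TTTGAA or TTCAAA stood in 5 of the 19 (26.3%), against 13.8% of all. A match of letters is a description of the window and not a measured site.

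The Runx core TGTGGT or ACCACA was searched in the same way. It stood in 15.4% of genes lower in CD4 SP, in 16.3% of genes higher and in 13.4% of all measured genes. Nkg7 had 1 such stretch and Rag1 2. Nkg7 and Rag1 are shown as the granule gene and the recombinase gene described above, each in the 250 bases before the start, with the core in capitals, at chr7:43436888-43437137 (plus strand) and chr2:101649533-101649782 (minus strand) of GRCm38.p6.
Nkg7: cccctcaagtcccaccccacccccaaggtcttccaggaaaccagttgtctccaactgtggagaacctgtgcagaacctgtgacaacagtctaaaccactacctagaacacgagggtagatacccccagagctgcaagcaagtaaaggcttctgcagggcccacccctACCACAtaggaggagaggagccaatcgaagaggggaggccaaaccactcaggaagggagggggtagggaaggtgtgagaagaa
Rag1: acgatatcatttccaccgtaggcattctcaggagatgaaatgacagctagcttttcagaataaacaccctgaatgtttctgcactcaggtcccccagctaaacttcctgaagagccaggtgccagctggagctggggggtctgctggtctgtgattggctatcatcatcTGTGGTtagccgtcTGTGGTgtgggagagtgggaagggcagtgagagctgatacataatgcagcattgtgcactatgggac
These are counts of letters and say nothing of Runx factors.

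Further genes with large differences toward CD8 SP included Rapgef3, a cAMP-activated exchange factor for Rap, with 6.08, 7.03 and 5.33 in CD4 SP against 9.76, 9.63 and 9.75 in CD8 SP (-3.56 ± 0.35, limma adjusted p = 1.78e-05). Ly6d, a surface protein of immature lymphocytes, averaged 5.70 ± 0.14 in CD4 SP, 8.92 ± 0.06 in CD8 SP and 9.47 ± 0.29 in DP (-3.22 ± 0.25, limma adjusted p = 1.07e-06). Xrcc6, a subunit of the Ku complex that joins broken DNA ends, averaged 6.68 ± 0.85 in CD4 SP and 9.46 ± 0.09 in CD8 SP (-2.78 ± 0.31, limma adjusted p = 5.56e-05). Nt5dc2 (-3.53 ± 0.32) and Stab1, a scavenger receptor (-2.94 ± 0.48), completed the 15 together with genes named above. On the CD4 side the remaining genes of the 15 were Ckb, Gpnmb, Insyn2b, Zfp281, Mapk11 and Ephx1. Ckb, the brain-type creatine kinase, was bright in both lineages, at 10.25 ± 0.11 in CD4 SP and 7.63 ± 0.39 in CD8 SP (2.62 ± 0.42, limma adjusted p = 0.00164). Ephx1, an epoxide hydrolase, averaged 7.43 ± 0.10 in CD4 SP and 4.90 ± 0.24 in CD8 SP (limma adjusted p = 6.46e-05). Insyn2b was undetected in CD8 SP and at least 5.45-fold higher in CD4 SP (limma adjusted p = 0.00288). The call of Mapk11, a stress-activated kinase (2.55 ± 0.59, limma adjusted p = 0.0224), ended without CD4 SP array 1 (0.0782), 2 (0.0673) or 3 (0.0559) or CD8 SP array 3 (0.106).

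Cholesterol synthesis had 3 lower and 0 higher members of 12 measured out of 18 (median -0.63), against 2.11% and 1.49% of all measured genes. Idi1, the isomerase of the isoprenoid pathway, read 6.99, 6.66 and 6.61 in CD4 SP, against 8.87, 8.48 and 8.82 in CD8 SP (-1.97 ± 0.27, limma adjusted p = 0.000372). Fdps, a synthase of the pathway (5.99 in CD4 SP, 7.99 in CD8 SP, limma adjusted p = 0.00919), lost its call without CD4 SP array 1 (0.0583), and another Fdps probe had the opposite sign (0.72 ± 0.50). Sqle, the squalene epoxidase (-1.33 ± 0.27, limma adjusted p = 0.00932), lost its call without CD4 SP array 3 (0.0504). In glycolysis 1 of 12 measured genes out of 16 was lower, against 2.11% of all measured genes, and the median was -0.20. The lower gene was Tpi1, with 8.12 ± 0.13 in CD4 SP and 9.63 ± 0.09 in CD8 SP (-1.51 ± 0.25, limma adjusted p = 0.00195).

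Genes of regulatory and innate-like T cells were read as markers of other cells that the CD4 SP sort could hold. Of 12 measured regulatory T cell genes out of 18, Tnfrsf4 and Tnfrsf18 were higher and Nrp1 was lower in CD4 SP. Foxp3, which defines regulatory T cells, averaged 7.88 ± 0.20 in CD4 SP and 8.21 ± 0.16 in CD8 SP by its brighter probe (-0.33 ± 0.25, limma adjusted p = 0.588). Its other probe, ILMN_2635132, was called higher in CD4 SP, with 5.99 ± 0.26 there and no detection in CD8 SP (at least 2.11-fold, limma adjusted p = 0.0178), so the 2 probes disagreed. Gpr83, a receptor of regulatory T cells, was likewise uncalled by its brighter probe (0.39 ± 0.34, limma adjusted p = 0.660) and at least 5.77-fold higher by ILMN_2707941 (limma adjusted p = 0.00172). The summed level of the list was 1350 to 1569 on CD4 SP arrays and 1150 to 1211 on CD8 SP arrays. Tnfrsf18 (1.61 ± 0.41, limma adjusted p = 0.0403) and Nrp1 (-1.73 ± 0.44, limma adjusted p = 0.0373) lost their calls without any single one of the 6 arrays (0.0685 to 0.124 and 0.0580 to 0.141), and Tnfrsf18 also with the chip as a block (0.0531). Of 9 measured NKT and innate-like genes out of 18, Il18r1, Icos and Rora were higher in CD4 SP, and the median was -0.02. The summed level was 1112 to 1776 on CD4 SP arrays and 801 to 1031 on CD8 SP arrays. Rora (1.94 ± 0.50, limma adjusted p = 0.0405) lost its call without CD4 SP array 1 (0.117), 2 (0.0776) or 3 (0.115) or CD8 SP array 2 (0.168) or 3 (0.133). The part of such cells in the results for Tnfrsf4 and Il18r1 was not tested.

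Of the B cell genes, 7 of 12 were measured and 1 was lower in CD4 SP. It was Ighm, the heavy chain of IgM, with 6.28, 5.74 and 6.48 in CD4 SP, against 8.53, 7.97 and 8.45 in CD8 SP and 7.99 ± 0.31 in DP (-2.15 ± 0.29, limma adjusted p = 0.000354). Igkc, the kappa light chain, was detected on no CD4 SP array and 2 CD8 SP arrays and was not called (limma adjusted p = 0.141). The B cell genes summed to 436 to 487 on CD4 SP arrays, 774 to 821 on CD8 SP arrays and 571 to 757 on DP arrays. These sums include Ighm, and the other 6 members were not called. The median difference of the 7 was -0.42. The part of B cells in the genes lower in CD4 SP was not tested. Markers of macrophages and dendritic cells (9 measured), erythroid cells (5), neutrophils (1), gamma delta T cells (4) and thymic epithelium and stroma (14) gave 0 calls by their brightest probes, as did 4 sex-linked genes. Another probe of Etv5, a gene of the gamma delta list, was called higher in CD4 SP (ILMN_1235329, at least 2.65-fold, limma adjusted p = 0.00603).

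Immediate early and heat shock genes can respond to cell handling. Of 16 measured out of 20, 3 were higher in CD4 SP and 1 lower, with a median of -0.22. Zfp36, which destabilises cytokine mRNAs, averaged 9.78 ± 0.10 in CD4 SP and 8.45 ± 0.19 in CD8 SP (1.33 ± 0.20, limma adjusted p = 0.000909). Dusp1, a phosphatase of stress kinases, averaged 9.09 ± 0.10 in CD4 SP and 7.33 ± 0.64 in CD8 SP (1.75 ± 0.32, limma adjusted p = 0.00411, 0.0504 in a fit of the 6 arrays alone). Egr1, given above, was the other. Hspd1, a mitochondrial chaperone, differed by -0.91 ± 0.21 (limma adjusted p = 0.0195) and lost its call when any array but CD8 SP array 2 was left out (0.0502 to 0.0807). The part of handling in the receptor-induced genes was not tested.

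Against 1.49% of all measured genes, interferon-stimulated genes gave 1 call, higher, among 28 measured out of 35 (median 0.49). It was Rsad2 (1.28 ± 0.33, limma adjusted p = 0.0430), whose call ended without CD4 SP array 1 (0.153) or 2 (0.169) or CD8 SP array 1 (0.156) or 3 (0.181). Gbp2, Oasl2 and Zbp1 were called higher by another probe only. MHC class I and antigen processing genes gave 0 calls among 16 (median 0.37). WNT, TCF/LEF and target genes gave 0 among 19 by their brightest probes (median -0.09), including Axin2 (0.02 ± 0.45). Lef1, a partner of beta-catenin, had 10.40 ± 0.11 in CD4 SP and 9.71 ± 0.08 in CD8 SP by its brightest probe (limma adjusted p = 0.0795). Its 3 other probes were all called higher in CD4 SP, by 1.35, 1.06 and 0.98 (limma adjusted p = 0.00294, 0.0203 and 0.0146). Notch receptors and targets gave 0 among 9 (median -0.27).

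The cKO arrays, 3 of CD4 SP and 3 of CD8 SP, held other samples and were used to read the same genes again. They shared the filter, the normalization, the choice of probe and the estimate of spread with the wild-type calls. The cKO calls are therefore not a fully separate reading. Among all genes, 4.19% were called between cKO CD4 SP and cKO CD8 SP, 1.56% higher and 2.63% lower in CD4 SP. Of the 193 genes higher in wild-type CD4 SP, 185 had the same sign in cKO and 103 were called there, with a median difference of 1.17 in cKO and 1.53 in wild type. Of the 274 lower genes, 268 had the same sign and 202 were called, with a median of -1.48 in both genotypes. None of the 467 was called in the opposite direction in cKO. The medians in wild type were those that chose the genes and are given for reference only.

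Myo6 averaged 9.76 in cKO CD4 SP and 4.55 in cKO CD8 SP (5.22, limma adjusted p = 3.23e-08), and Endou 4.56 in cKO CD4 SP and 9.12 in cKO CD8 SP (-4.56, limma adjusted p = 2.87e-09). The cell cycle list had 22 lower members in cKO with a median of -1.68. Of the 30 genes with the largest differences, Il18r1 (1.34, limma adjusted p = 0.158), Insyn2b (1.49, 0.0854) and Irf4 (1.01, 0.0899) were not called in cKO. The interaction of lineage and genotype was past the threshold in 0 of 26676 probes in limma, with 1249 at an unadjusted p under 0.05, so a call in 1 genotype alone does not show a difference between genotypes.

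**Figure D5:**
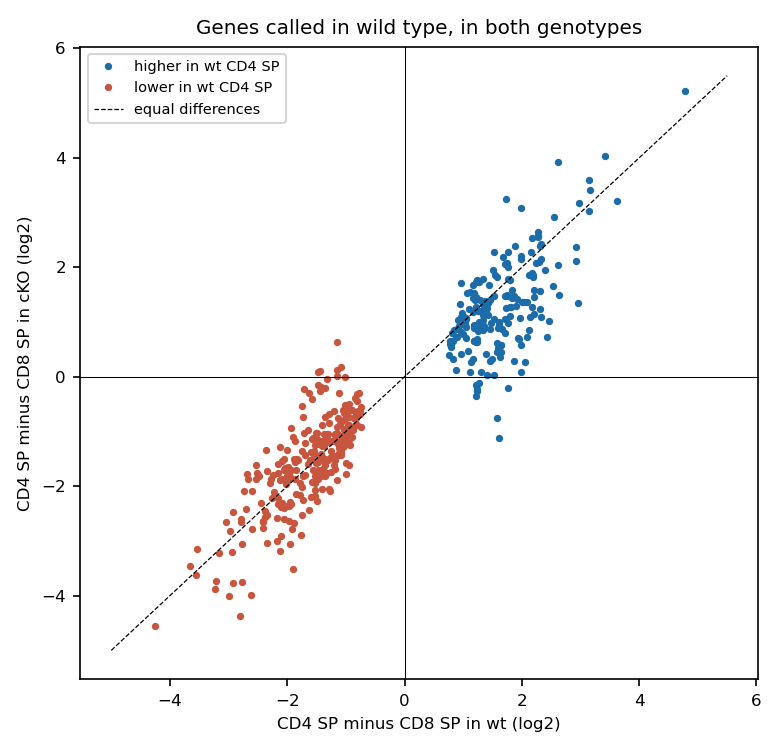
Difference between CD4 SP and CD8 SP (log2) for the 467 genes called in wild type, with the cKO difference on the vertical axis against the wild-type difference on the horizontal axis; blue points are genes higher in wild-type CD4 SP, red points lower, and the dashed line marks equal differences. Of the blue points 185 of 193 lie above 0 in cKO, and of the red points 268 of 274 lie below 0.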

How the data were processed

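Cells were profiled on Illumina mouse BeadChips after labelling of 200 ng of total RNA, per the labels' protocols. The deposited table held an intensity for each of 46237 probes on each array, not normalized, per the file headers. It also held a detection p-value for each probe and array as deposited; the sources used here do not state how the authors computed it. The authors' deposited table of processed values held linear intensities already normalized between arrays by a method not stated, with medians of 195.4, 197.7 and 201.3 on the CD4 SP wt arrays and 195.5, 201.0 and 202.2 on the CD8 SP wt arrays, and was used after log2 as an alternative only.

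Intensities were corrected with the neqc function of limma 3.58.1 in R 4.3.3 (normexp with the detection p-values, offset 16, quantile normalization, log2). Probes were tested if their detection p was under 0.05 on at least 3 of the 18 arrays, which left 26676. This filter ran over all 6 groups, and the measured members of a list are those that passed it. A linear model with 6 group means and 12 residual degrees of freedom was fitted with lmFit and eBayes, and p-values were adjusted by Benjamini-Hochberg over all tested probes. A symbol from the platform annotation stood for 35784 probes, of which 35728 were named through RefSeq, and 10453 had no symbol. Each of 12975 genes was read by 1 tested probe, that of highest mean over the 18 arrays. Where no array of a group detected a probe, the fold is a bound against the lowest detected signal of each array or the probe's own value, whichever was higher. Precision is limited by the number of arrays, 3 per group.

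The genes named were the coreceptors with every tested probe (1 further probe was not tested), the 15 with the largest difference in each direction among calls with the same sign on all chips and no overlap, leaving out clone and locus numbers, and up to 4 called members of each of 29 lists with well-known members that did not pass. Other called list members, such as the MCM genes, and genes whose less bright probes were called, such as Satb1 and Gpr83, were named after their values were seen. The members and lists were chosen with earlier results of these data known. Label numbers 1 to 3 were the 3 BeadChips, per the file headers. Deviations of CD4 SP and CD8 SP arrays of the same number correlated at 0.11, 0.03 and 0.06, so the numbers were not taken as pairs. Code was tested on simulated data. Alternatives covered the background correction, scaling, filters, the chip as a block, the arrays in the fit, the variance model, the mean of a gene's probes and each array left out. Promoters were those of RefSeq on GRCm38.p6. Figures were drawn with matplotlib 3.10.9 in Python 3.11.15.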

Additional observations from a re-analysis of the deposited data

How the results depend on the processing

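The alternatives were read one by one for 74 entries, the genes of the naming rule above and the called Cd4 and Cd8b1 probes. None of the 74 reversed its direction, 52 kept their call under every alternative, and 17 lost it without some single array. Genes named beside the rule, such as Dusp6, Slfn1, St6gal1, Plk1 and the MCM genes, were not read one by one. Nor were calls by less bright probes of other genes, such as Lat, Foxp3 and Gpr83. The called probes, 912 with 473 higher and 439 lower in CD4 SP, numbered 1655 (842 and 813) in the deposited processed values, 1739 (939 and 800) without background correction and 1612 (887 and 725) with a trended, robust variance. With a detection p under 0.01 they numbered 1390, of which 735 were higher, and with an offset of 50 the higher probes were 710. Median scaling gave 780 with 306 higher, and the array median as a covariate 652 with 249 higher. A fit of the 6 arrays gave 488 (264 and 224). Leaving out 1 of the 6 arrays gave 493 to 657 calls, 219 to 351 higher and 233 to 324 lower. Without 1 array 29 to 30 of the 30 genes with the largest differences kept their call, and 55 to 66 list genes were called in place of 73. The genes called in the full wild-type fit were held fixed for the cKO contrast. With 1 wild-type or cKO array left out, 219 to 298 of them in place of 305 were called in cKO in the same direction. The interaction count stayed at 0 to 0. The causes were not tested, although fewer arrays leave fewer degrees of freedom. The chip number as a replicate block, which the check of pairing did not bear out, gave 920 calls (478 and 442). It ended the calls of Ifngr1 (0.0574), Tnfrsf18 (0.0531) and the Cd4 probe ILMN_1217214 (0.0580), and of no other of the 74 entries.

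Signal over background limits the low genes, and within each genotype chip position cannot be told apart from lineage. CD4 SP and CD8 SP took positions B and C in wild type, and E and F in cKO.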
